A study of Drosophila melanogaster with 90 samples.

Results

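Transcripts of the cytochrome P450 family 4 (CYP4) were followed in whole females of Drosophila melanogaster. The genes were taken by symbol, as every row that begins with Cyp4 and a letter from a to s, without Cyp4d21 and Cyp4g1. This gave 20 genes, of 22 Cyp4 rows and 14514 named gene rows in all. All 20 had enough counts to be tested, as had 12045 genes (83.0%) of the whole table. The females came from 5 inbred lines of the Global Diversity collection, named Beijing, Ithaca, Netherlands, Tasmania and Zimbabwe, and each was either mated once to a male of 1 of the 5 lines or kept as a virgin of the same age. The 25 crosses are written with the female line first. They hold 74 mated libraries, 3 for each cross except Ithaca x Zimbabwe, which has 2, and the 5 groups of virgins hold 15 libraries, 3 for each line. Flies were kept at 25 °C, were 3 to 5 days old at the start, and freezing followed 5 to 6 h after a mating had started. Each library pooled RNA of 5 to 10 whole females from a bottle of its own. Each line is a single inbred genotype that carries no engineered allele named in the labels, and the Zimbabwe line, though collected in Africa, was judged by the submitters to descend from a recent migrant. A whole female mixes all tissues, and for these bulk samples fewer cells of a type and less RNA per cell cannot be told apart.

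Cytochrome P450 enzymes are heme monooxygenases that receive electrons from a reductase and insert oxygen into small, mostly lipophilic molecules. CYP4 enzymes of mammals are best known for hydroxylating fatty acids at the end of the chain, and in insects the family is large and has been studied for its part in fatty acid, hydrocarbon and insecticide metabolism. In Drosophila melanogaster Cyp4g1, which is set aside here, makes the cuticular hydrocarbons in the oenocytes, Cyp4g15 is known from the nervous system, and Cyp4e3 is known from the Malpighian tubules, the fly's excretory organ, where it has been tied to tolerance of the pyrethroid permethrin. Substrates of the other genes are not named here.

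In the BDGP6 annotation, 6 of the 20 genes lie on chromosome X, 4 on 2L, 7 on 2R, 2 on 3L and 1 on 3R. Many stand side by side. Cyp4ac1, Cyp4ac2 and Cyp4ac3 are neighbours on 2L, as are Cyp4p2, Cyp4p1 and Cyp4p3 on 2R, Cyp4ad1, Cyp4e2 and Cyp4e1 on 2R, and Cyp4d14, Cyp4d2 and Cyp4ae1 on X. Cyp4d14, Cyp4d2, Cyp4ae1, Cyp4e1, Cyp4s3 and Cyp4aa1 overlap an exon of a gene on the opposite strand. The library kit does not mark strand, so reads of such pairs cannot be told apart with certainty, and reads of the close copies within a cluster may be split between them.

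Total counts per library ranged from 4407704 to 38799730, of which 2412 to 19603 fell on the 20 genes. Only 2 of their 1780 values were 0, both of Cyp4p2. Levels are given as CPM, counts relative to a scaled library size. Per kilobase of exon, Cyp4e2 had the highest mean over the 89 libraries, with 67.2 CPM per kb, followed by Cyp4d14 with 38.7, Cyp4p1 with 17.8 and Cyp4d2 with 14.4 CPM per kb. The lowest were Cyp4ac3 with 3.15 and Cyp4c3 with 0.964 CPM per kb, and Cyp4g1 stood at 2115 CPM per kb.

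Some libraries stood apart from their labels. In 6 mated libraries the summed level of 21 testis markers was 12.5 to 941 CPM, against at most 5.12 CPM in the other 83. In 6 libraries, genes that are near absent in the labelled female line reached 14.4% to 62.9% of their level in another line. They were replicate 2 of Beijing x Netherlands, Netherlands x Beijing and Netherlands x Ithaca, replicates 1 and 3 of Ithaca x Zimbabwe, and replicate 3 of the Tasmania virgins. Not every pair of lines had enough genes for this measure. Beijing libraries could be measured for Zimbabwe transcripts only, Netherlands libraries not for Beijing transcripts, and Tasmania and Zimbabwe libraries not for Ithaca transcripts. Any library may hold transcripts of a line that could not be measured in it. Both sets together cover 10 libraries, and where a mean or the end of a range named below moved most with them, the value without them is given too. Libraries also differed in a slope over gene length, used below as length covariate. It ran from -0.508 to 0.188 in mated and from -0.232 to 0.112 in virgin libraries. Replicate 2 of Netherlands x Ithaca had the lowest, -0.508, and replicate 2 of Beijing x Netherlands had -0.316. The part of this slope in the levels of single libraries was not tested. Replicate 1 of the Netherlands virgins was the highest of its 3 libraries in 20 of 20 genes. It also had the highest summed midgut markers, 11558 CPM, against 5261 and 4129 CPM in replicates 2 and 3, and oenocyte markers, 6829 CPM, against 2876 and 3166 CPM. The same held for yolk markers, 42526 CPM, against 20764 and 17383 CPM, and for fat body, Malpighian tubule and neuron markers. Most of the oenocyte sum was Cyp4g1 itself, at 6661, 2787 and 3070 CPM in replicates 1, 2 and 3. Ovary markers, 4998 CPM, lay between the 5493 and 4342 CPM of replicates 2 and 3. The part of these markers in the levels of that library was not tested.

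The first comparison asked which transcripts differed between mated and virgin females, averaged over the 5 lines. Of the 20 genes, Cyp4d14, Cyp4e3 and Cyp4p3 rose and Cyp4s3 fell after mating, and 16 did not pass the test. These are 3 genes higher, where 4.16% of all tested genes were called higher, and 1 lower, where 1.47% were called lower. The share of all genes called lower depended on the fit, with 2.26% under a replicate block and 4.35% with a length covariate, where the same 4 genes of the family were called. Over both directions 4 of 20 passed, against 5.63% of all tested genes, and 6 of 20 had an unadjusted p under 0.05. The fitted mean change was above 0 in 6 and below 0 in 14 genes, with a median log2 change of -0.07, against 0.01 over all tested genes.

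**Figure D1:**
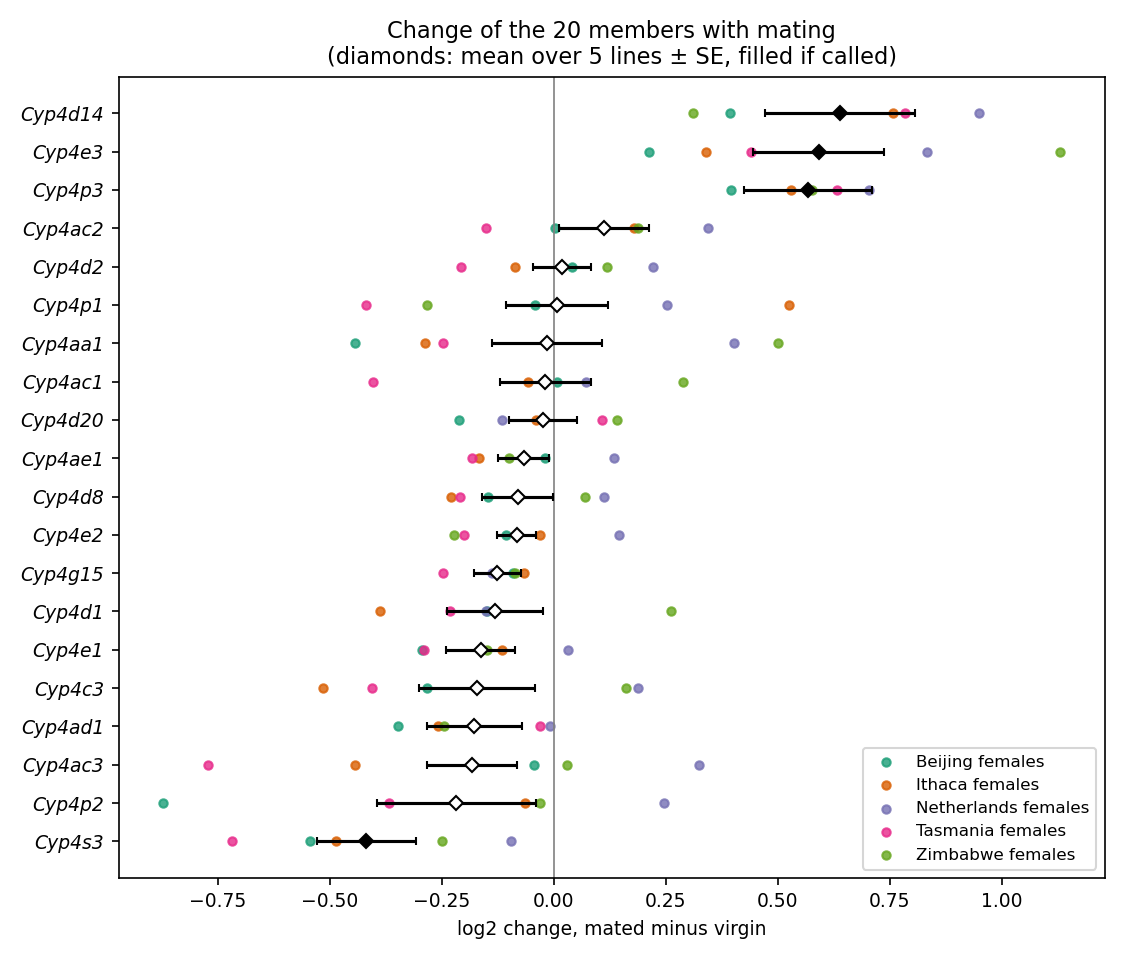
Log2 change of each of the 20 genes, mated minus virgin. Diamonds give the mean over 5 female lines with its standard error, filled where edgeR's adjusted p was under 0.05, and coloured points give each line. The 3 filled diamonds on the right (Cyp4d14, Cyp4e3, Cyp4p3) and the 1 on the left (Cyp4s3) have all 5 lines on 1 side of 0.

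Cyp4e3, the gene known from the Malpighian tubules, separated mated from virgin females most clearly in the Zimbabwe line. There it had 16.7, 24.2 and 32.2 CPM (lowest, median and highest of 15 mated libraries), against 8.57, 11.6 and 12.2 CPM in the 3 virgin libraries. All 15 mated libraries lay above all 3 virgin libraries. This was the only pair of groups without overlap among the 100 combinations of a gene and a line. No such count over all tested genes is given here to set it against. Netherlands females had 4.35, 8.01 and 20.9 CPM after mating, against 5.74, 3.38 and 4.89 CPM as virgins. In Ithaca females Cyp4e3 had 8.96, 12.2 and 20.5 CPM in 14 mated libraries, against 11.8, 9.06 and 9.56 CPM in virgins, and in Tasmania females 7.53, 11.9 and 18.6 CPM, against 6.38, 9.03 and 12.4 CPM. Groups of these 3 lines overlapped, with most mated libraries of the Netherlands and Ithaca lines above the virgins. Beijing females had the highest levels and the widest spread, with 21.3, 49.2 and 137 CPM after mating, against 39.6, 34.1 and 65.7 CPM in virgins, and there the virgin libraries lay inside the range of the mated ones. The highest mated value in Netherlands females was that of the Netherlands x Beijing library named above, and without the libraries that stood apart the highest was 11.3 CPM.

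Averaged over the lines, Cyp4e3 was 0.59 ± 0.15 higher after mating on the log2 scale (SE, 1.51-fold, edgeR adjusted p = 0.00657), with the same sign in 5 of 5 lines. The change within a line was 1.13 ± 0.34 in Zimbabwe and 0.83 ± 0.35 in Netherlands females, and 0.21 ± 0.30 in Beijing females (log2, SE). None of these passed the test on its own, with edgeR adjusted p of 0.233, 0.730 and 1. The 5 Malpighian tubule markers (Uro, CapaR, Irk3, NaPi-T and Best2, none at 0) summed in the median to 338, 398, 307, 337 and 360 CPM in mated Beijing, Ithaca, Netherlands, Tasmania and Zimbabwe females, against 287, 321, 196, 323 and 250 CPM in virgins of the same lines. Of the 5 markers, 2 were called higher after mating and none lower. By edgeR 4 had an unadjusted p under 0.05, and not all of these were higher after mating. The median log2 change of the 5 was -0.045, so they did not all rise as their sum did. Their part in the change of Cyp4e3 was not tested.

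Cyp4p3, the last gene of its cluster on 2R, was higher in mated than in virgin females on average in each line. Ithaca females had 17.9, 27.5 and 37.96 CPM after mating, against 17.9, 18.8 and 18.6 CPM in virgins, and 13 of 14 mated libraries lay above all virgins. In Tasmania females it had 3.22, 5.96 and 10.8 CPM, against 5.02, 2.78 and 4.46 CPM, and in Zimbabwe females 3.75, 9.16 and 18.7 CPM, against 6.57, 8.37 and 4.31 CPM. Mated libraries were mostly the higher ones in these lines, and the groups overlapped. Beijing females had 10.4, 18.4 and 25.6 CPM after mating, against 11.8, 11.1 and 18.5 CPM in virgins. In Netherlands females the mated libraries had 3.53, 5.87 and 18.1 CPM, against 5.56, 3.70 and 3.23 CPM in virgins. The highest mated value of that line, 18.1 CPM, and the next, 14.4 CPM, came from the Netherlands x Ithaca and Netherlands x Beijing libraries named above, and without these the highest was 9.84 CPM.

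The mean change of Cyp4p3 was 0.57 ± 0.14 (log2, SE, 1.48-fold, edgeR adjusted p = 0.00752), positive in 5 of 5 lines. Changes within lines were close together, with log2 values of 0.40 in Beijing, 0.53 in Ithaca, 0.70 in Netherlands, 0.63 in Tasmania and 0.58 in Zimbabwe females. Its neighbours in the cluster did not pass the test, with 0.01 ± 0.11 for Cyp4p1 and -0.22 ± 0.18 for Cyp4p2 (log2, SE, edgeR adjusted p = 1 and 0.671).

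Cyp4d14, from the cluster on X, had the largest mean change of the 20 genes. In Ithaca females, where it was highest, mated libraries had 102, 175 and 285 CPM, against 76.4, 78.2 and 161 CPM in virgins. Netherlands females had 45.9, 73.2 and 145 CPM after mating, against 62.2, 26.3 and 28.3 CPM in virgins, and 12 of 15 mated libraries lay above all virgins of that line. Mated Tasmania females had 5.66, 21.7 and 47.96 CPM, against 12.5, 14.00 and 11.3 CPM in virgins. The 3 Tasmania virgins stood close together inside a wide mated range, with 11 mated libraries above and 4 below all of them. In Beijing females Cyp4d14 had 13.3, 27.3 and 56.6 CPM, against 33.9, 12.2 and 22.3 CPM, and in Zimbabwe females 28.5, 46.3 and 98.3 CPM, against 27.2, 38.7 and 48.1 CPM, with wide overlap in both lines. The highest Beijing and Netherlands values came from the Beijing x Netherlands and Netherlands x Ithaca libraries named above, without which the highest were 43.3 and 101 CPM. The mean change was 0.64 ± 0.17 on the log2 scale (SE, 1.56-fold, edgeR adjusted p = 0.0106), with the same sign in 5 of 5 lines. The gene on the opposite strand that overlaps Cyp4d14, CG3621 (ND-B14.5A), changed by 0.07 ± 0.13 with mating (log2, SE, edgeR adjusted p = 0.948). The adjacent Cyp4d2 and Cyp4ae1 had 0.02 ± 0.06 and -0.07 ± 0.06 (log2, SE) and did not pass.

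Cyp4s3 was the only gene of the 20 called lower after mating. In Tasmania females it had 6.42, 11.4 and 16.03 CPM after mating, against 18.9, 13.2 and 21.8 CPM in virgins, and 10 of 15 mated libraries lay below all virgins. The highest of these virgins was replicate 3, the library with Zimbabwe transcripts, and the calls of all 4 genes stood without it. Beijing females had 2.58, 4.44 and 12.04 CPM in mated libraries, against 7.82, 7.79 and 5.50 CPM in virgins, with 12 of 15 mated libraries below and 2 above all virgins. The highest mated value in Beijing females came from the Beijing x Netherlands library with Zimbabwe transcripts, and without the libraries that stood apart the mated mean was 4.56 ± 1.73 CPM (SD, n = 13), against 5.10 ± 2.51 CPM with them (SD, n = 15). Ithaca females had 11.1, 19.5 and 28.3 CPM, against 31.6, 19.96 and 33.9 CPM, and Zimbabwe females 22.3, 35.8 and 46.4 CPM, against 37.2, 44.2 and 40.8 CPM. In both lines virgins were mostly higher, with overlap. Netherlands females had 9.34, 12.5 and 19.8 CPM after mating, against 21.8, 10.3 and 9.25 CPM in virgins, where virgin replicate 1 was high, as in all 20 genes, and the other two were low. On average Cyp4s3 fell by 0.42 ± 0.11 on the log2 scale (SE, 0.748-fold, edgeR adjusted p = 0.0117), with the same sign in 5 of 5 lines. Without replicate 1 of the Netherlands virgins the mean change was -0.32 and no longer passed (edgeR adjusted p = 0.0677, within 0.00601 to 0.141 over 25 alternatives), while Cyp4d14, Cyp4e3 and Cyp4p3 stayed called, at 0.74, 0.63 and 0.62. Rab3-GEF, which overlaps Cyp4s3 on the other strand, changed by -0.20 ± 0.15 (log2, SE, edgeR adjusted p = 0.597).

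**Figure D2:**
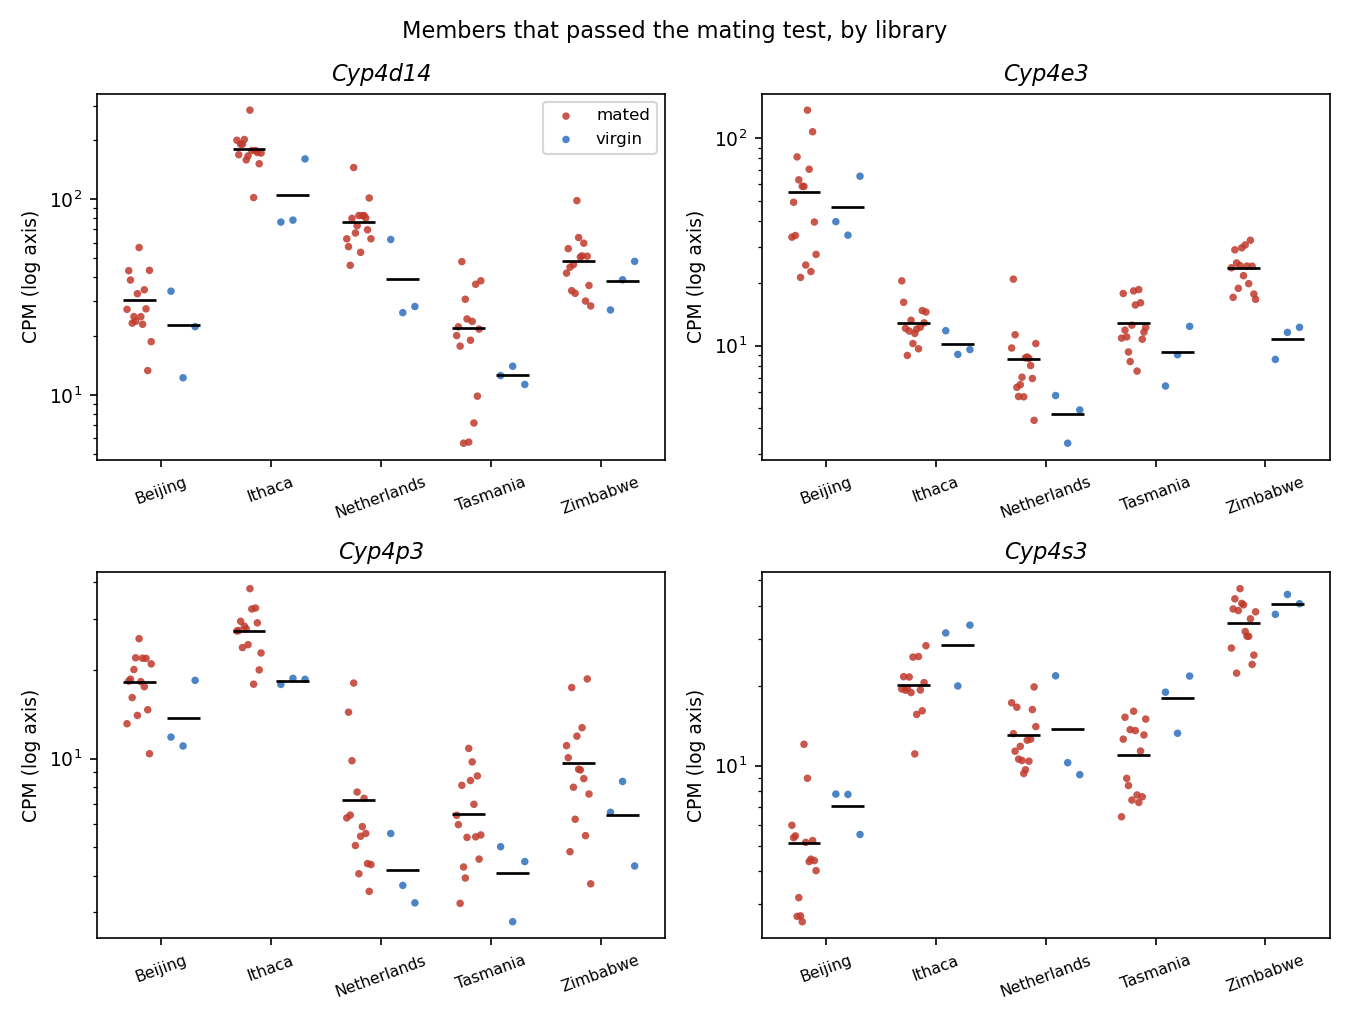
Level in CPM (log axis) of Cyp4d14, Cyp4e3, Cyp4p3 and Cyp4s3 in each library, by female line, with mated libraries (red) left of virgin libraries (blue) and group means as black bars. Mated means lie above virgin means in 5 lines for the first 3 genes and below them in 5 lines for Cyp4s3, and Cyp4e3 in Zimbabwe females is the only case without overlap.

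Leaving out replicates ended calls of the mating comparison. Fits without all libraries of replicate number 1, 2 or 3 called 0, 1 and 2 of the 4 genes, while their signs stayed as they were. Without replicate 1 the log2 changes were 0.50 for Cyp4e3, 0.54 for Cyp4p3, 0.73 for Cyp4d14 and -0.28 for Cyp4s3. Without the 9 libraries with testis transcripts or transcripts of another line (1 further library was kept, as the last of its cross) all 4 calls stood.

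Among the 16 other genes, Cyp4g15, the member known from the nervous system, had -0.13 ± 0.05 (log2, SE, edgeR adjusted p = 0.181) and the same negative sign in 5 of 5 lines. Its levels averaged 29.8 ± 4.29 CPM in mated and 35.2 ± 4.66 CPM in virgin Tasmania females (SD, n = 15 and 3). Cyp4e1 had -0.16 ± 0.08 (adjusted p = 0.268) and Cyp4e2, the most abundant member per length, had -0.08 ± 0.04 (adjusted p = 0.371), both by edgeR. Standard errors of the 20 mean changes ran between 0.04 and 0.18 on the log2 scale. The opposite-strand neighbour of Cyp4e1, the maltase gene Mal-A1, had -0.33 ± 0.14 (log2, SE, edgeR adjusted p = 0.211).

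Within single lines none of the 20 genes passed. The share of all tested genes called was 0.0249% in Beijing, 0.174% in Ithaca, 0.125% in Netherlands, 0.822% in Tasmania and 0.083% in Zimbabwe females, and 1, 2, 3, 5 and 2 of the 20 genes had an unadjusted p under 0.05. The smallest edgeR adjusted p was that of Cyp4ac3 in Tasmania females, with -0.77 ± 0.22 (log2, SE, adjusted p = 0.0706). There it had 1.62, 2.69 and 5.81 CPM in mated libraries, against 5.37, 4.59 and 5.51 CPM in virgins, with 14 of 15 mated libraries below all virgins. In Netherlands females its sign was the opposite, 0.32 ± 0.23, with 4.16, 6.65 and 8.48 CPM after mating, against 6.87, 3.51 and 5.15 CPM in virgins. The test of whether the mating change differed between lines called none of the 20 genes, where 0.0664% of all tested genes were called, and 1 of 20, Cyp4ac3, had an unadjusted p under 0.05 (0.0106, edgeR adjusted p = 0.879). DESeq2 called 0 of 20 in that test and within the other 4 lines. By DESeq2, with a replicate block or with a length covariate, the Tasmania change of Cyp4ac3 passed, at adjusted p of 0.0409, 0.0423 and 0.0346.

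The second comparison asked how the levels differed between female lines. Among mated females all 20 genes differed between the 5 lines, where 70.1% of all tested genes were called, and 17 of 20 did among virgins, against 27.5% of all tested genes. The range of the line means among mated females had a median of 1.65 on the log2 scale over the 20 genes, against 0.53 over all tested genes. It was above the median of all genes in 18 and above their upper quartile, 0.94, in 14 genes. In 14 genes the highest line was at least 2-fold above the lowest (log2 range of 1 or more) and in 9 at least 4-fold (log2 range of 2 or more). No line was high or low in all. By mean CPM the highest levels were those of Ithaca, Tasmania and Zimbabwe females in 5 genes each, of Beijing females in 3 and of Netherlands females in 2, and the lowest those of Beijing females in 8, Zimbabwe in 6, Tasmania in 4, and Ithaca and Netherlands in 1 each. Without the libraries that stood apart Beijing and Tasmania females were lowest in 7 and 3 genes and Netherlands females in 3, since Cyp4ad1 and Cyp4p3 were then lowest there. The highest line of Cyp4aa1 and of Cyp4ac3 was not the same on mean CPM as on means of log2 CPM over crosses.

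**Figure D3:**
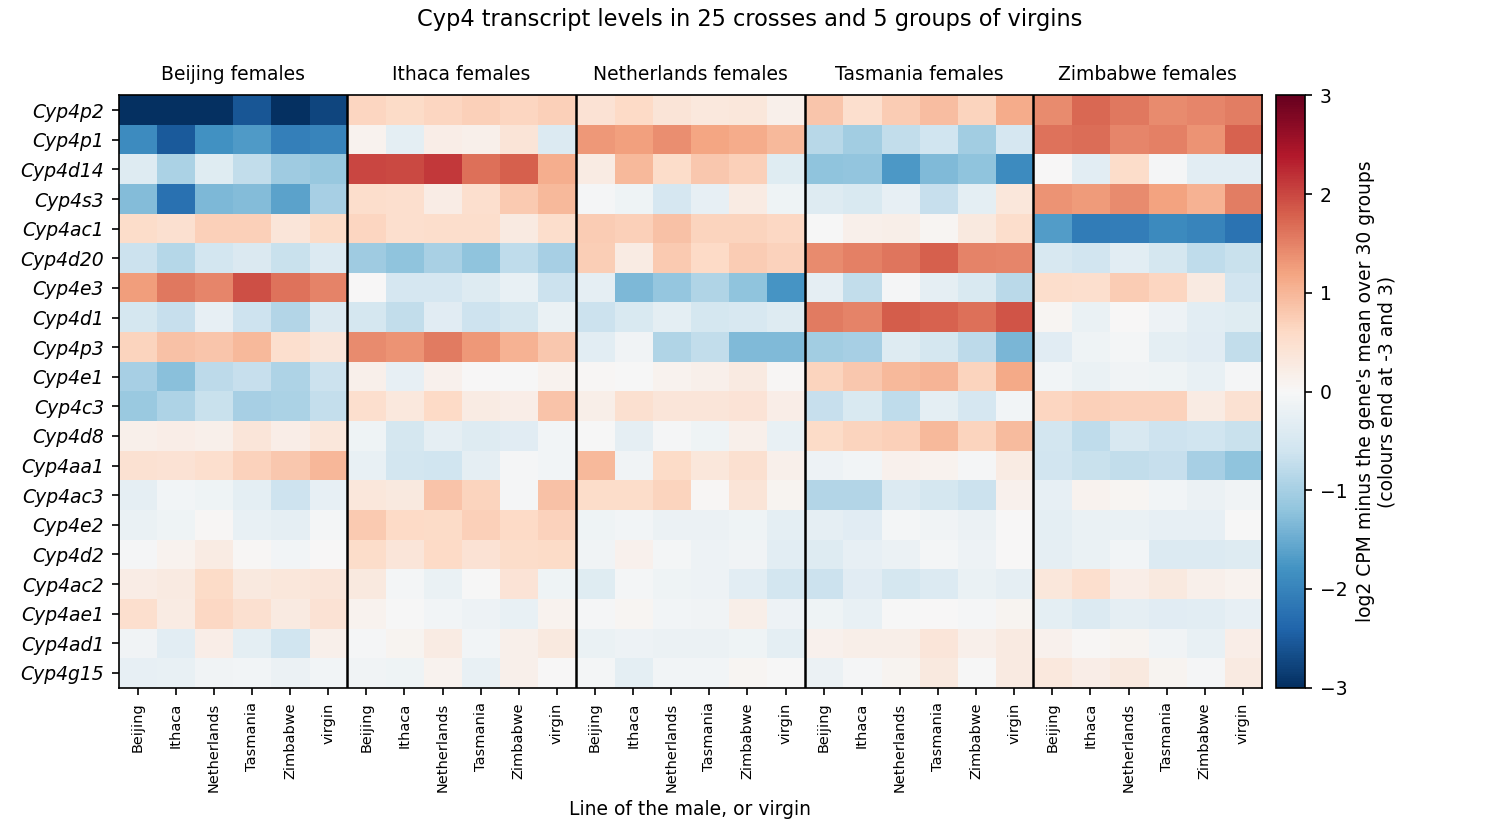
Mean log2 CPM of each of the 20 genes in 25 crosses and 5 groups of virgins, minus the gene's mean over the 30 groups, with genes ordered by the range of their line means among mated females. Colours change between the 5 blocks of female lines and little within them, and the virgin column at the right of each block has the colour of its line in most rows.

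The widest range was that of Cyp4p2, the first gene of the cluster on 2R, which was near absent in Beijing females. Mated Beijing females had 0, 0.291 and 4.85 CPM of Cyp4p2 (lowest, median and highest of 15 libraries), all below the libraries of the other lines. Those had 7.44, 8.59 and 11.5 CPM in Ithaca, 5.46, 7.38 and 10.4 CPM in Netherlands, 6.87, 9.34 and 14.4 CPM in Tasmania and 13.5, 15.7 and 20.3 CPM in Zimbabwe females. The log2 range was 4.99 between Zimbabwe and Beijing females (31.8-fold, edgeR adjusted p = 7.52e-22 over the 5 lines). The difference of Beijing females from the mean of the other 4 lines was -4.26 ± 0.26 (log2, SE, edgeR adjusted p = 3.86e-22). A count of 0, found in replicate 2 of Beijing x Ithaca and replicate 3 of Beijing x Netherlands, allows up to 3 counts, or 0.208 and 0.308 CPM, by counting error alone. The Beijing value nearest to the other lines, 4.85 CPM, was that of the Beijing x Netherlands library with Zimbabwe transcripts at 17.1% of their Zimbabwe level. Zimbabwe was the only other line whose transcripts could be measured in it. Without the libraries that stood apart the Beijing mean was 0.478 ± 0.567 CPM (SD, n = 13), against 0.770 ± 1.24 CPM with them (n = 15). Virgins kept the order at its ends, with 1.43, 1.31 and 0.149 CPM in Beijing and 13.5, 22.5 and 14.6 CPM in Zimbabwe virgins.

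Its neighbour Cyp4p1 was high in Zimbabwe females, with 47.2, 58.2 and 73.7 CPM, and in Netherlands females, with 41.8, 46.9 and 61.3 CPM. Ithaca females had 14.4, 22.5 and 29.2 CPM, Tasmania females 6.93, 11.8 and 16.7 CPM and Beijing females 2.997, 3.87 and 16.1 CPM, or at most 9.15 CPM without the libraries that stood apart. The libraries of Zimbabwe and Netherlands females overlapped each other and lay above all others, and Beijing females were lowest, with a difference of -2.44 ± 0.14 from the other lines (log2, SE, edgeR adjusted p = 9.22e-24). The log2 range was 3.52 (11.5-fold, edgeR adjusted p = 1.37e-30). Virgins had 56.7, 97.2 and 63.1 CPM in Zimbabwe, 50.7, 29.4 and 43.4 CPM in Netherlands and 8.68, 5.38 and 2.78 CPM in Beijing females. The profiles of Cyp4p1 and Cyp4p2 over the 5 line means had r = 0.80, a description over 5 points. Cyp4p3, on the other side of Cyp4p1, had another order, with r of -0.36 to Cyp4p1. It was highest in Ithaca females, at 27.2 ± 5.22 CPM, and next in Beijing females, at 18.3 ± 4.07 CPM, against 9.65 ± 4.28 CPM in Zimbabwe, 7.22 ± 4.06 CPM in Netherlands and 6.50 ± 2.25 CPM in Tasmania females (mean and SD of mated libraries, n = 14 in Ithaca and 15 in the other lines). Without the libraries that stood apart Netherlands females averaged 5.84 ± 1.73 CPM (n = 13), below the Tasmania mean, so the order of these 2 lines turned. Beijing females were thus lowest for 2 genes of the cluster and 0.82 ± 0.13 above the other lines for the third of its genes (log2, SE, edgeR adjusted p = 2.96e-07).

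Cyp4d14, which also rose with mating, had values of 102 to 285 CPM in mated Ithaca females. Netherlands females followed with 45.9 to 145 CPM, Zimbabwe females with 28.5 to 98.3 CPM, Beijing females with 13.3 to 56.6 CPM and Tasmania females with 5.66 to 47.96 CPM. The ranges of neighbouring lines overlapped, and that of Ithaca females lay above those of the Zimbabwe, Beijing and Tasmania lines. It overlapped that of Netherlands females only through the Netherlands x Ithaca library named above, and without the libraries that stood apart the nearest values were 101.9 CPM in Ithaca and 101.5 CPM in Netherlands females. The log2 range was 3.24 (9.45-fold, edgeR adjusted p = 6.33e-21). Ithaca females were 2.19 ± 0.15 above the other lines (log2, SE, edgeR adjusted p = 2.90e-20), and Tasmania females differed from them by -1.60 ± 0.18 (edgeR adjusted p = 5.38e-11). The highest Netherlands value, 145 CPM, was that of the Netherlands x Ithaca library in which Ithaca transcripts stood at 62.9% of their Ithaca level. That library also had the lowest slope over gene length, -0.508. Without the libraries that stood apart the mean was 72.6 ± 14.6 CPM in Netherlands (SD, n = 13) and 188 ± 47.2 CPM in Ithaca females (SD, n = 9), against 76.4 ± 23.6 and 179.8 ± 39.2 CPM with them. The summed level of 7 midgut markers, none at 0, was also highest in Ithaca females, with a median of 13107 CPM in mated libraries. Mated Beijing, Netherlands, Tasmania and Zimbabwe females had medians of 5617, 7278, 5522 and 8969 CPM. Medians of yolk, Malpighian tubule and neuron markers were highest in mated Ithaca females too, at 34967, 398 and 178 CPM. Those of ovary, fat body and oenocyte markers were not. The part of any of these markers in the difference was not tested. Cyp4d2, the neighbour of Cyp4d14, was likewise highest in Ithaca females, at 48.9 ± 4.74 CPM, but ranged only over 0.78 on the log2 scale, and the profiles of the 2 genes had r = 0.75 over 5 line means.

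Cyp4s3 was high in Zimbabwe females, which averaged 34.3 ± 7.26 CPM (SD, n = 15 mated libraries). Ithaca females averaged 20.2 ± 4.44 CPM (n = 14), Netherlands females 13.1 ± 3.13 CPM, Tasmania females 10.95 ± 3.38 CPM and Beijing females 5.10 ± 2.51 CPM (n = 15 each), against 4.56 ± 1.73 CPM in Beijing females without the libraries that stood apart (n = 13). The difference from the other lines was 1.66 ± 0.11 in Zimbabwe females (log2, SE, edgeR adjusted p = 3.06e-21) and -1.87 ± 0.14 in Beijing females (edgeR adjusted p = 6.97e-19). The log2 range was 2.81 (7.03-fold, edgeR adjusted p = 3.90e-24). Its opposite-strand neighbour Rab3-GEF had the reverse order at the ends, with a mated mean of 13.05 CPM in Zimbabwe and 25.58 CPM in Beijing females.

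Cyp4ac1, the first gene of the cluster on 2L, was low in Zimbabwe females. Mated Zimbabwe libraries had 2.02, 3.06 and 5.16 CPM, all below every library of the other lines, which had 10.8, 20.3 and 26.2 CPM in Beijing, 13.1, 17.8 and 25.9 CPM in Ithaca, 15.3, 20.3 and 28.03 CPM in Netherlands and 9.71, 13.1 and 22.4 CPM in Tasmania females. The difference of Zimbabwe females from the other lines was -2.46 ± 0.12 (log2, SE, edgeR adjusted p = 2.52e-26), and the log2 range of the 5 line means was 2.69 (6.45-fold). Zimbabwe virgins had 2.69, 3.20 and 2.16 CPM, and virgins of the other lines 14.5 to 30.3 CPM. The adjacent genes had no such gap. Cyp4ac2 averaged 9.50 ± 1.42 CPM in mated Zimbabwe females, between 5.81 ± 1.39 CPM in Tasmania and 9.997 ± 2.52 CPM in Beijing females, and Cyp4ac3 averaged 4.59 ± 1.11 CPM, between 3.07 ± 1.12 CPM in Tasmania and 6.75 ± 1.86 CPM in Ithaca females (SD, n = 14 in Ithaca, 15 in the others). Over the 5 line means r was -0.37 between Cyp4ac1 and Cyp4ac2 and 0.20 between Cyp4ac1 and Cyp4ac3.

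Cyp4d20 and Cyp4d1 were high in Tasmania females. Cyp4d20 had 34.7, 47.6 and 60.8 CPM in mated Tasmania libraries, all above the other lines, of which Netherlands females came nearest with 14.4, 26.7 and 34.3 CPM. Zimbabwe females had 7.39, 10.8 and 16.3 CPM, Beijing females 7.34, 10.1 and 14.2 CPM and Ithaca females 5.45, 7.87 and 9.84 CPM. The lowest Netherlands value was that of the Netherlands x Ithaca library named above, and without the libraries that stood apart the lowest was 17.3 CPM. Tasmania females were 1.97 ± 0.07 above the other lines for Cyp4d20 (log2, SE, edgeR adjusted p = 1.62e-34) and its log2 range of 2.61 ended with Ithaca females (6.10-fold). Line accounted for 93.2% of the sum of squares of Cyp4d20 among mated libraries, the highest share of the 20 genes. Cyp4d1 had 61.9 ± 20.5 CPM in mated Tasmania females (SD, n = 15) and 12.6 ± 3.43 to 17.4 ± 3.999 CPM in the other lines, and again no Tasmania library overlapped with them, the nearest values being 27.2 and 24.3 CPM. For Cyp4d1 the difference of Tasmania females was 2.16 ± 0.10 (log2, SE, edgeR adjusted p = 1.17e-28).

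**Figure D4:**
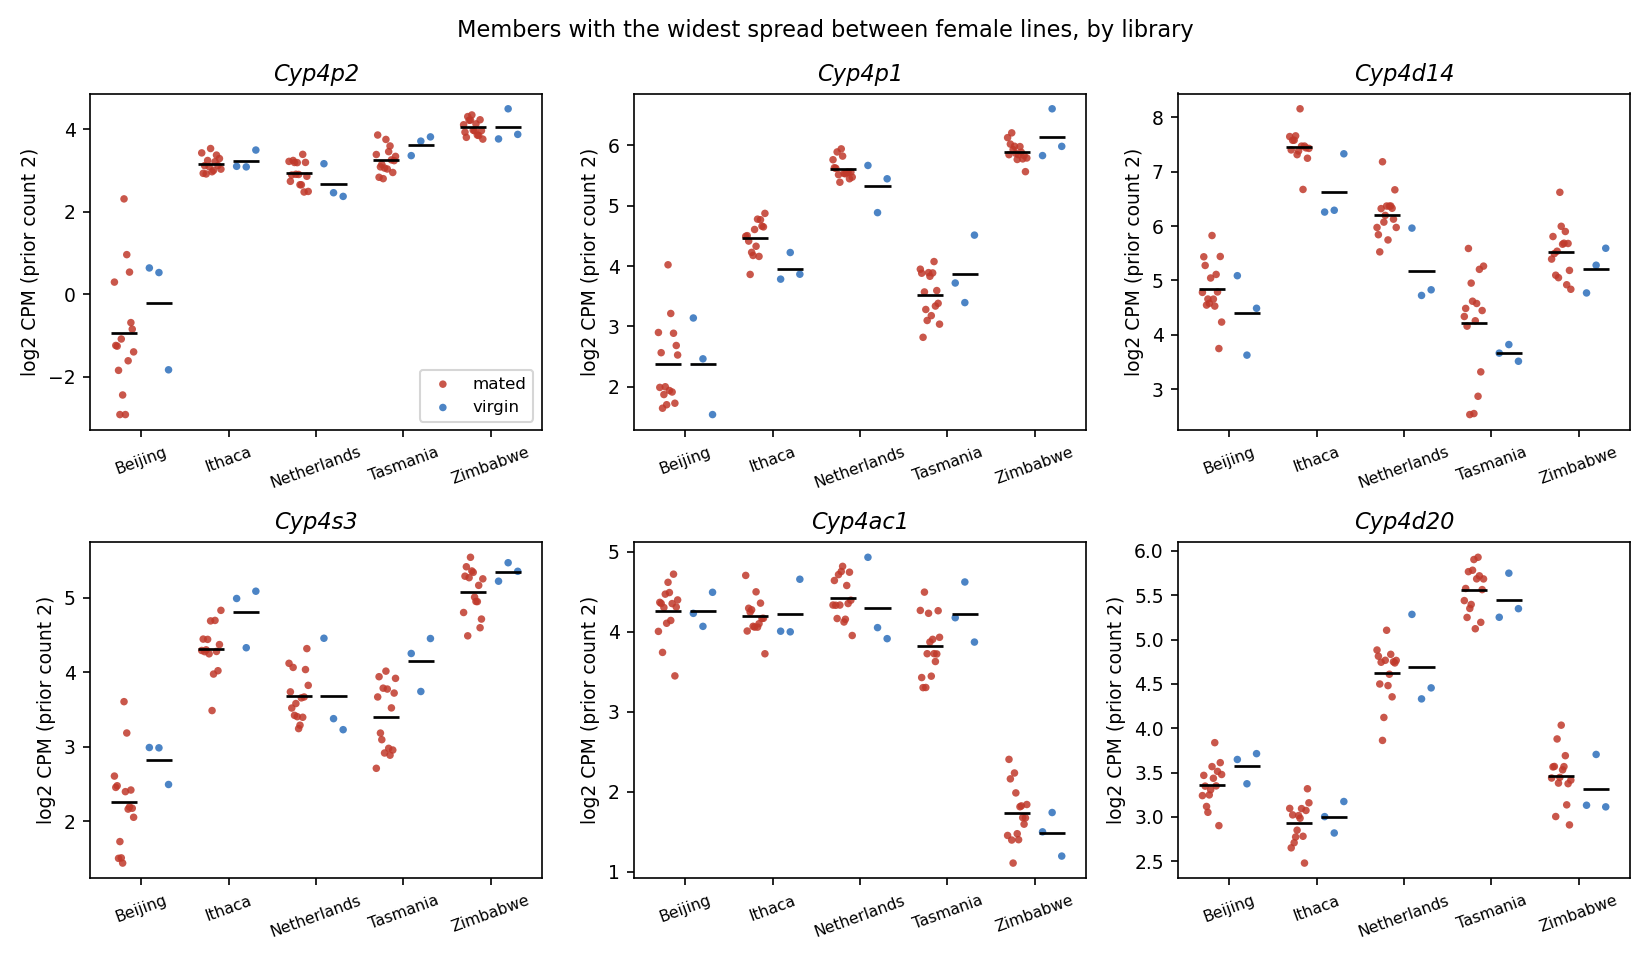
Log2 CPM (prior count 2) in each library of the 6 genes with the widest range of line means, by female line, with mated libraries (red) left of virgin libraries (blue) and group means as black bars. Beijing females are lowest for Cyp4p2, Cyp4p1 and Cyp4s3, Zimbabwe females stand apart at the bottom for Cyp4ac1, and virgins lie near the mated libraries of their line.

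Cyp4e3 differed between lines over 2.55 on the log2 scale (edgeR adjusted p = 6.40e-22), with the highest mated mean in Beijing females, 55.3 ± 33.4 CPM, and the lowest in Netherlands females, 8.58 ± 3.91 CPM (SD, n = 15 each), or 51.02 ± 32.4 and 7.86 ± 1.96 CPM without the libraries that stood apart (n = 13 each). Beijing females were 2.01 ± 0.12 above the other lines (log2, SE, edgeR adjusted p = 5.24e-22). The tubule markers, with mated medians of 307 to 398 CPM in the 5 lines, were highest in Ithaca females, and their part in the line difference of Cyp4e3 was not tested. Cyp4e2 ranged over 0.89 only, yet with little spread within lines: mated Ithaca females had 155, 193 and 256 CPM, all above the other lines, whose highest library had 141 CPM (133 CPM without the libraries that stood apart), and were 0.84 ± 0.04 above them (log2, SE, edgeR adjusted p = 2.86e-25). Cyp4e1, next to it, was highest in Tasmania females at 13.9 ± 2.58 CPM and lowest in Beijing females at 4.03 ± 0.955 CPM (SD, n = 15 each), where Mal-A1 on the other strand had its highest mated mean, 1255 CPM. The profiles of Cyp4e1 and Cyp4e2 over the 5 line means had an r of 0.00.

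Of the others, Cyp4c3, Cyp4d8, Cyp4aa1 and Cyp4ac3 had log2 ranges of 1.54, 1.32, 1.31 and 1.11, and Cyp4ac2 and Cyp4ae1 of 0.76 and 0.74. Cyp4d8 was high in Tasmania females, 17.1 ± 3.13 CPM, and low in Zimbabwe females, 6.75 ± 1.22 CPM (SD, n = 15 each). Cyp4aa1 was lowest in Zimbabwe females, 10.1 ± 2.22 CPM, and near equal in Netherlands and Beijing females, 25.96 ± 13.4 and 25.3 ± 5.43 CPM (SD, n = 15 each). The narrowest ranges were those of Cyp4ad1, 0.42, and of Cyp4g15, 0.34, both below the all-gene median of 0.53. Cyp4g15, the member known from the nervous system, averaged 32.9 ± 5.14 CPM in mated Zimbabwe and 25.7 ± 2.02 CPM in mated Beijing females (SD, n = 15 each).

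Against the mean of the other 4 lines, 18 of the 20 genes differed in Beijing females, 7 higher and 11 lower, where 37.8% of all tested genes did (19.6% higher and 18.3% lower). In Ithaca females 14 of 20 differed, against 43.5% of all tested genes, with 9 higher (23.7% of all) and 5 lower (19.8%). Netherlands females differed in 13 of 20, against 34.8%, with 8 higher (18.4%) and 5 lower (16.3%). For Tasmania females the count was 16 of 20, against 30.9%, with 6 higher (16.4%) and 10 lower (14.5%). In Zimbabwe females it was 14 of 20, against 33.2%, with 7 higher (16.9%) and 7 lower (16.3%). The summed level of the 20 genes per length was 222 ± 26.9 CPM per kb in mated Beijing, 354 ± 29.6 in Ithaca, 258 ± 21.95 in Netherlands, 233 ± 25.8 in Tasmania and 239 ± 21.5 in Zimbabwe females (SD, n = 14 in Ithaca, 15 in the others). In virgins of these lines it was 223 ± 38.2, 314.4 ± 54.7, 214.0 ± 67.7, 256 ± 3.21 and 241 ± 38.8 CPM per kb (SD, n = 3 each).

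Virgins largely repeated the order of the lines. On mean log2 CPM the highest line was the same in mated and virgin females in 16 of 20 genes and the lowest line in 16 of 20. Over the 5 line means the correlation between mated and virgin levels had a median of 0.956 over the 20 genes, passed 0.9 in 13 and was lowest for Cyp4ac3, at 0.516, each over 5 points. No such counts or correlations over all tested genes are given here, so they describe the 20 genes without setting them apart. Among virgins Cyp4ac2, Cyp4ad1 and Cyp4g15 did not pass the line test, with edgeR adjusted p of 0.0890, 0.810 and 0.194.

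The third comparison asked whether the line of the male mattered for the levels in his mate. None of the 20 genes differed between male lines averaged over the 5 female lines, where 0.0083% of all tested genes (1 gene) were called, and 1 of 20, Cyp4ac3, had an unadjusted p under 0.05 (0.023, edgeR adjusted p = 0.388). Its mean over female lines was 5.92 CPM after mating with Netherlands males and 4.29 CPM after mating with Zimbabwe males, with 4.74, 5.03 and 4.85 CPM after mating with Beijing, Ithaca and Tasmania males. The range between male lines had a median of 0.24 on the log2 scale over the 20 genes, against 0.25 over all tested genes. Within single female lines the range over the 5 mates was widest for Cyp4p2 in Beijing females, 1.91 on the log2 scale, with 1.11 ± 0.832 CPM after mating with Tasmania males and 0.162 ± 0.170 CPM after mating with Ithaca males (SD, n = 3 each). The highest mean in CPM was that after mating with Netherlands males, 1.63 ± 2.78 CPM, which holds the library with 4.85 CPM of Cyp4p2 and Zimbabwe transcripts. The range was next widest for Cyp4p3 in Netherlands females, 1.22 on the log2 scale, with 11.002 ± 6.60 CPM after mating with Ithaca males and 4.10 ± 0.488 CPM after mating with Zimbabwe males (SD, n = 3 each). The Netherlands x Ithaca mean holds the library with Ithaca transcripts. The test of female line by male line also called none of the 20, against 3.53% of all tested genes. No gene had an unadjusted p under 0.05 there, and the smallest edgeR adjusted p was 0.693, for Cyp4g15. By DESeq2 both tests also called 0 of 20.

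Among the 74 mated libraries, female line accounted for a median of 76.8% of the sum of squares of log2 CPM over the 20 genes, against 23.4% over all tested genes. Male line accounted for 1.53% against 4.84%, female line by male line for 4.00% against 12.4%, and differences within crosses for 17.5% against 54.1%. Female line held 93.2% for Cyp4d20, 92.5% for Cyp4p1 and 91.4% for Cyp4ac1, and the least for Cyp4g15, 29.9%, and Cyp4ad1, 17.3%. Cyp4g15 had the highest share for female line by male line, 27.3%, and for male line, 5.97%.

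**Figure D5:**
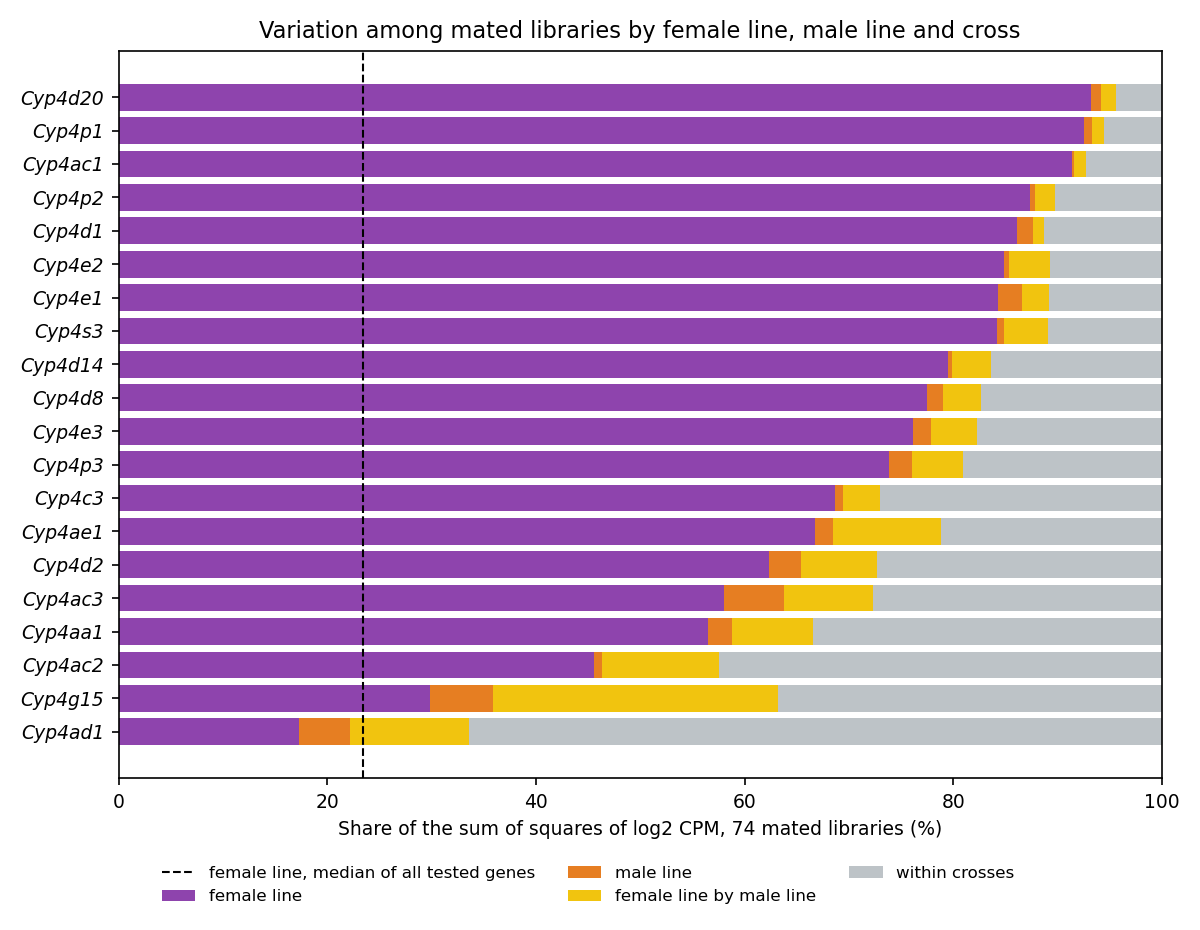
Share of the sum of squares of log2 CPM over 74 mated libraries that falls to female line, male line, their combination and differences within crosses, in percent, for each of the 20 genes. The dashed line is the median share of female line over all tested genes, 23.4%, and the bars of 19 genes pass it.

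The other cytochrome P450 genes give the setting. Of 56 others that could be tested, 6 rose and 3 fell with mating, against 5.63% of all tested genes called, and 51 (91.1%) differed between lines among mated females, against 70.1% of all tested genes. In the CYP3 clan, known for insecticide metabolism, 4 of 35 rose and 3 fell, among them Cyp6a8 with 0.92 ± 0.16 and Cyp6a2 with 0.52 ± 0.15, and Cyp6g1 with -0.31 ± 0.07 and Cyp6g2 with -0.34 ± 0.09 (log2, SE). Among 8 genes of the other families of the CYP4 clan, Cyp312a1 rose by 0.89 ± 0.23 and Cyp313a1 by 0.49 ± 0.14 and none fell. Cyp312a1, at a mean of 3.55 CPM, was also called in the test of female line by male line (edgeR adjusted p = 0.00556). By edgeR none of 4 CYP2 clan genes, 9 mitochondrial clan genes and 7 redox partners was called in either direction (0, 1 and 2 genes at an unadjusted p under 0.05). Median log2 ranges of line means were 1.23 (CYP3 clan), 1.55 (mitochondrial clan), 0.99 (CYP2 clan) and 0.90 (other families of the CYP4 clan). Of 6 regulators of the xenobiotic response 1 rose, Keap1, the cytosolic inhibitor of the pathway, by 0.21 ± 0.07 (log2, SE, edgeR adjusted p = 0.0481). Cyp4d21, set aside here, rose by 1.99 ± 0.26 with mating (log2, SE) and was called in the test of female line by male line (edgeR adjusted p = 0.00399). Its mean in mated Ithaca females was 2.11 CPM, or 0.655 CPM without the libraries that stood apart, against 0.187 CPM in Ithaca virgins. Cyp4g1 had a mating change of 0.13 ± 0.08 (log2, SE, edgeR adjusted p = 0.476) and a log2 range of 0.83 between lines.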

How the data were processed

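The authors deposited raw counts of reads for each gene, which were not normalized. The submitters' processing notes name dm3 as genome build and, as tools, HTSeq, TopHat2, Trimmomatic and FastQC; versions, annotation release and strand setting are not given in the sources used here. Per the labels' protocols, reads were single and 100 bases long. Of 90 labelled samples 89 have a column; replicate 2 of Ithaca x Zimbabwe was not analysed here. Of 14522 rows, 8 with a number for a symbol (0.122% of counts) were left out. Names, neighbours and exon lengths came from BDGP6, which differs in build, so no coordinates are given; all 20 genes matched.

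Tests were run with edgeR 4.0.16 on limma 3.58.1 in R 4.3.3, and with DESeq2 1.42.0. The filter filterByExpr over 30 groups left 12045 genes, TMM factors were 0.740 to 1.10, and edgeR's quasi-likelihood fit, with robust estimation, had a mean for each group of the 89 libraries. Contrasts of group means were tested by edgeR, with Benjamini-Hochberg adjustment over all tested genes and calls under 0.05. Standard errors were obtained as the size of the log2 change over the square root of F. Line and male line tests have 4 and their combination 16 degrees of freedom. Sums of squares were taken on log2 CPM (prior count 2), female line first. Intervals for a count of 0 cover counting error only. The fit was tested on simulated data.

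Transcripts of another line were measured with at least 4 genes whose median was at most 0.2 CPM in the labelled line and at least 5 CPM in the other. No 2 libraries of a group were alike within counting error (88 pairs were compared and the smallest chi-square per df was 12.2). The text gives full values for genes called in a mating or male line test and for the 6 with the widest line range and a mean log2 CPM of at least 1. The other genes with full values were named after their values were seen. Alternatives were DESeq2's test and size factors, no count filter, a replicate block, leaving out replicates, virgin libraries or libraries with testis transcripts, mated libraries alone, and CPM by total counts; leaving out libraries with transcripts of another line and a gene length covariate were added after seeing the data. The 20 genes, the lists and the markers were chosen with earlier results of these data known.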

Additional observations from a re-analysis of the deposited data

How the results depend on the processing

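Across 27 alternatives, 2 of them chosen after seeing the data, 60 of 69 results were scored the same under all alternatives run for them, and none reversed. Counts scored the same could still move. Genes of the 20 called between lines numbered 17 among virgins, within 13 to 19, and 20 among mated females, within 19 to 20. For Netherlands females against the other lines they numbered 13, within 10 to 14. The 69 include mean levels of single genes in mated females of a line, which have no threshold and were set against 1 alternative only. Results that changed under some alternative include all those of the mating comparison averaged over lines. The 4 mating calls stood under DESeq2's test, its size factors, no count filter, the replicate block, the length covariate and both sets of left-out libraries. Leaving out replicates changed them. The number of the 20 genes called ranged from 0 to 3 higher and from 0 to 1 lower, with log2 changes of 0.45 to 0.74 for Cyp4d14, 0.50 to 0.76 for Cyp4e3, 0.49 to 0.65 for Cyp4p3 and -0.52 to -0.28 for Cyp4s3. Without replicate 1 no gene of the family was called, without replicate 2 only Cyp4s3, and without replicate 3 Cyp4e3 and Cyp4p3; each of these fits has fewer libraries. Within Tasmania females 1 gene, Cyp4ac3, was called under DESeq2, the replicate block and the length covariate. The replicate block changed no other call of the 20 genes in a mating test. Replicate numbers were not taken as pairs in the main fit. Deviations from group means had median correlations of 0.075, 0.054 and 0.169 within numbers, against a median of -0.04 between numbers. Not every same-numbered pair of libraries correlated, with minima of -0.51, -0.80 and -0.84. Still, 55 of 87 libraries correlated best with their own number, a hint of a shared part that comes from the data and not the design. Over all genes the replicate block called 584 higher and 272 lower, the length covariate 710 and 524, and leaving out replicate numbers gave 168 to 309 higher and 52 to 105 lower, against 501 and 177. Cyp4p2 in Beijing females, at a few counts per library, is limited by depth.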
